A study of Mus musculus with 4 samples.

Results

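The endoplasmic reticulum (ER) stress and protein folding genes described here are 32 mouse genes of the unfolded protein response, the integrated stress response and ER-associated degradation. They were chosen by name, and all 32 were matched by symbol among the 39179 gene identifiers counted in macrophages sorted from tumours. By role they fall into 11 chaperones and foldases of the ER lumen, 7 stress sensors and transcription factors, 4 targets of the integrated stress response, 8 genes of ER-associated degradation and 2 of protein translocation.

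The macrophages came from tumours that MycCaP-BMP4 cells or MycCaP cells had formed under the skin of FVB mice, with 2 libraries per group. MycCaP is a mouse prostate cancer line driven by a MYC transgene, which both kinds of tumour therefore carried, and MycCaP-BMP4 is the same line made to overexpress BMP4, a secreted bone morphogenetic protein. The mice were not given an age in the labels, and nothing says whether the samples of a group came from separate mice or tumours, or whether MycCaP-BMP4 is 1 clone. P-values here thus reflect how far these few samples scatter, and that scatter may be technical. Tumours were dissociated and cells were sorted for the surface proteins CD45, CD11b and F4/80 and against GR1. F4/80 appears in the titles of the MycCaP-BMP4 samples alone, so whether both groups passed the same gate cannot be told from the labels.

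Secreted and membrane proteins fold in the ER, where chaperones such as BiP hold unfinished chains and disulfide isomerases join their cysteines. When unfolded chains build up, 3 sensors in the ER membrane answer. IRE1 (Ern1) splices the mRNA of Xbp1, ATF6 is cut to release a transcription factor, and PERK (Eif2ak3) phosphorylates the initiation factor eIF2, which slows translation while the transcription factor ATF4 is still made. PERK shares that last step with other eIF2 kinases, and the joint pathway is called the integrated stress response. Macrophages use these pathways to support the secretion of cytokines and lysosomal enzymes. Most of this control acts on splicing, cleavage and phosphorylation, which counts per gene do not show: spliced and unspliced Xbp1 are counted together here.

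The ER stress element (ERSE) is the promoter sequence that ATF6 and XBP1 bind together with the factor NF-Y, and it joins several members by their DNA. RefSeq promoters (GRCm38.p6, 250 bases before to 50 after the start site) were found for 28 of the 32 members. Each was searched on both strands for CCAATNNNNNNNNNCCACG, the ERSE. Of the 28 members, 7 held it (Hspa5, Hsp90b1, Pdia6, Dnajc3, Creld2, Syvn1 and Derl3), against 0.119% of the 32851 promoters in the table. The shorter ERSE-II, ATTGGNCCACG, was in the promoters of Dnajb11 and Herpud1 and in 0.0365% of all promoters. The element TGATGNAA, the core of sites that ATF4 binds with C/EBP proteins, was found for Nupr1, Trib3, Chac1 and Herpud1, and in 3.97% of all promoters. The element TGACGTGG, bound by XBP1, was found for no member and in 0.676% of all promoters. These members were listed as stress response genes, so the matches describe the list and are not an independent result, and a match is not a proven binding site. The elements are shown here, 1 per gene, so that the members that share an element can be set beside their counts. Capitals mark the fixed bases.

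Hspa5 (chr2:34772025-34772043, plus strand): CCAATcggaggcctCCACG

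Hsp90b1, the first of 2 matches (chr10:86705638-86705656, minus strand): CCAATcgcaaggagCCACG

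Pdia6 (chr12:17266491-17266509, plus strand): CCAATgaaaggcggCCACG

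Dnajc3 (chr14:118937827-118937845, plus strand): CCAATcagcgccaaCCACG

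Creld2 (chr15:88819520-88819538, minus strand): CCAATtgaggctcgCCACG

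Syvn1 (chr19:6046532-6046550, plus strand): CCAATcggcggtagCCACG

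Derl3 (chr10:75893242-75893260, minus strand): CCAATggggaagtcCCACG

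Dnajb11 (chr16:22857852-22857862, plus strand): ATTGGcCCACG

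Herpud1 (chr8:94386377-94386387, plus strand): ATTGGgCCACG

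Whole promoters are shown for 3 members. Pdia6 had the highest fold change of the members and Trib3 the lowest. Herpud1 was the only member with both an ERSE-II and a TGATGNAA match. Capitals mark the ERSE or ERSE-II ends and the TGATGNAA match, which reads as its reverse complement in Herpud1 and Trib3.

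Pdia6 (chr12:17266339-17266638, plus strand): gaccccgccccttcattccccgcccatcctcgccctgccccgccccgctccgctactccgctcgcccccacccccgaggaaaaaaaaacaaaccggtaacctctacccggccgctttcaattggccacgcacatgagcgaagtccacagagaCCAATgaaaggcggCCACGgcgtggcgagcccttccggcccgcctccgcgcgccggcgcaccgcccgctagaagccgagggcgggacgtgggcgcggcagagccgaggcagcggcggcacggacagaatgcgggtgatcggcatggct

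Herpud1 (chr8:94386179-94386478, plus strand): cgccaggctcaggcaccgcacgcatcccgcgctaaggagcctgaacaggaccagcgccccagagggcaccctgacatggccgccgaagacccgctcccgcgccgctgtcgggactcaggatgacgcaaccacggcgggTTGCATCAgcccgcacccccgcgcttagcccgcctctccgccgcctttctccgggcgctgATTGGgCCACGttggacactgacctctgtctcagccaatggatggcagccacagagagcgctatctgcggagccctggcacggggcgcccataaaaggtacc

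Trib3 (chr2:152344011-152344310, minus strand): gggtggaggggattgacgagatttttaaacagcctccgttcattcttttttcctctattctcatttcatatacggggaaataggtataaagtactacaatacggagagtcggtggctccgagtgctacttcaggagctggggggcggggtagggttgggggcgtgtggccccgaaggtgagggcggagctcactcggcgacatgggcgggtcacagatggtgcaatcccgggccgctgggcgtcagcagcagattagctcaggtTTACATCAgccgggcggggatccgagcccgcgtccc

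The libraries held 23058263 to 24967143 counts in genes, and levels are given as CPM, counts scaled to each library's size after TMM normalization. Bmp4 had 512 and 182 CPM in MycCaP-BMP4 TAMs (tumour-associated macrophages, replicates 1 and 2) and 0.175 and 0.0422 CPM in MycCaP TAMs, so the labels of both groups fit its level. It was the implanted line that was made to overexpress BMP4, and which cells these Bmp4 counts came from was not tested. The 2 MycCaP-BMP4 libraries stood apart from each other. For 15 genes that mark macrophages in general, the median distance to the mean of the MycCaP libraries was -2.34 (log2) in replicate 1 but -0.43 in replicate 2. Their summed level was 7291 and 27584 CPM in MycCaP-BMP4 TAMs and 37184 and 33399 CPM in MycCaP TAMs. The share of gene counts from the mitochondrial genome was 3.28% and 2.85% in MycCaP-BMP4 TAMs and 0.671% and 1.63% in MycCaP TAMs, so this share also separated the groups, and its part in the members' levels was not tested. In bulk RNA, fewer cells of a type and less RNA per cell cannot be told apart.

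Together the 32 members had 10412 and 9411 CPM in MycCaP-BMP4 TAMs and 9628 and 8883 CPM in MycCaP TAMs. After the filter on low counts 31 members were tested, and Derl3 was not. The median log2 fold change of the 31, MycCaP-BMP4 over MycCaP, was 0.05, beside -0.03 for all 14075 genes tested. No member passed the edgeR quasi-likelihood test at a Benjamini-Hochberg adjusted p of 0.05, where 0% of all genes did. DESeq2 called no member either, while it called 6.83% of all genes as higher and 3.01% as lower, and limma-voom called none of any kind. At an unadjusted p under 0.05, edgeR had no member higher and 3 lower (Trib3, Sesn2 and Herpud1), against 12.3% and 6.76% of all genes (2680 genes in both directions, and 2743 with limma-voom). Both MycCaP-BMP4 libraries lay above both MycCaP libraries for 8 of the 31 members and below both for 9, against 28.9% and 29.7% of all genes, so these counts were near the background.

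**Figure D1:**
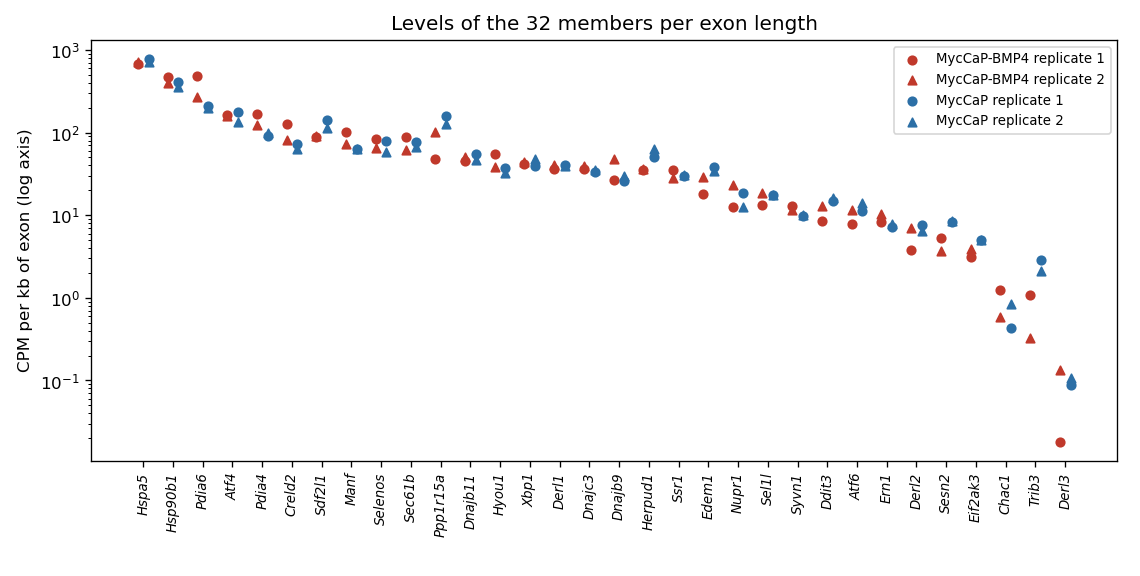
Level of each of the 32 members in each library, in CPM per kb of merged exon length on a log axis, with MycCaP-BMP4 libraries in red to the left of MycCaP libraries in blue. Hspa5 was the highest at 688 CPM per kb in MycCaP-BMP4 TAMs and 738 in MycCaP TAMs, and Derl3 the lowest.

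Per kb of exon, the members spanned a wide range of levels. Hspa5, which encodes BiP, the main chaperone of the ER lumen, led with a mean of 688 CPM per kb in MycCaP-BMP4 TAMs and 738 CPM per kb in MycCaP TAMs. Hsp90b1 (the chaperone GRP94) followed with 434 CPM per kb in MycCaP-BMP4 TAMs and 378 in MycCaP TAMs, and Pdia6, a disulfide isomerase, with 380 CPM per kb in MycCaP-BMP4 TAMs and 205 in MycCaP TAMs. In the MycCaP-BMP4 libraries Pdia6 had 1830 and 1015 CPM and Hsp90b1 1884 and 1614 CPM, so that Pdia6 was nearer to Hsp90b1 in replicate 1 than in replicate 2. Atf4 was the most abundant transcription factor gene of the list, with 162 CPM per kb in MycCaP-BMP4 TAMs and 157 in MycCaP TAMs. Among the 3 sensors, levels per kb were low: Atf6, Ern1 and Eif2ak3 had 9.68, 9.35 and 3.49 CPM per kb in MycCaP-BMP4 TAMs, against 12.6, 7.53 and 4.998 in MycCaP TAMs. Chac1, Trib3 and Derl3 were the least abundant, all under 3 CPM per kb in both group means.

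Chaperones and foldases of the ER lumen had the highest median fold change of the roles. None of the 11 passed edgeR's test. In both MycCaP-BMP4 libraries, 6 lay above both MycCaP libraries and 2 lay below, beside 28.9% and 29.7% of all genes. The median over the 11 was 0.43 (log2). Pdia6 had 1830 and 1015 CPM in MycCaP-BMP4 TAMs and 788 and 744 CPM in MycCaP TAMs. The groups did not overlap, but replicate 1 was 1.80 times replicate 2. Its log2 fold change was 0.89 ± 0.46 (SE), with a 95% interval from -0.24 to 2.03 and an edgeR adjusted p of 0.346.

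Pdia4, another disulfide isomerase, had 407 and 294 CPM in MycCaP-BMP4 TAMs and 215 and 238 CPM in MycCaP TAMs, a log2 fold change of 0.63 ± 0.33. Creld2, a small ER protein with isomerase activity that is induced by ER stress, had 174 and 111 CPM in MycCaP-BMP4 TAMs against 101 and 86.3 CPM in MycCaP TAMs, a log2 fold change of 0.61 ± 0.32. Both genes kept the groups apart, with the higher value in replicate 1. Hyou1, a large chaperone that exchanges the nucleotide of BiP, had 402 and 274 CPM in MycCaP-BMP4 TAMs and 267 and 231 CPM in MycCaP TAMs. Manf, a secreted stress-induced factor that binds BiP, had 362 and 257 CPM in MycCaP-BMP4 TAMs against 221 and 225 CPM in MycCaP TAMs. In both genes replicate 1 stood well above the MycCaP values and replicate 2 only a little above them. Dnajc3, a co-chaperone that also inhibits eIF2 kinases, was the sixth, at 188 and 202 CPM in MycCaP-BMP4 TAMs against 172 and 180 CPM in MycCaP TAMs. All 6 had 95% intervals that included 0.

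Hspa5 itself did not follow these genes. It had 2833 and 2986 CPM in MycCaP-BMP4 TAMs and 3240 and 3004 CPM in MycCaP TAMs, so both MycCaP-BMP4 values were lower, with replicate 2 just below the lower MycCaP library. The log2 fold change of Hspa5 was -0.10 ± 0.47, with a 95% interval from -1.28 to 1.07, and it turned to 0.068 when libraries were scaled by library size alone. Hsp90b1 had 1884 and 1614 CPM in MycCaP-BMP4 TAMs against 1631 and 1417 CPM in MycCaP TAMs, and the groups overlapped. Both genes carry the ERSE shown above, as do Pdia6, Creld2 and Dnajc3. Sdf2l1, a partner of BiP-bound DnaJ proteins, had the lowest fold change of the chaperones, with 98.4 and 100.1 CPM in MycCaP-BMP4 TAMs and 157 and 124 CPM in MycCaP TAMs. For this gene the log2 fold change was -0.50 ± 0.27, and the 2 MycCaP-BMP4 values were nearly equal.

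The DnaJ co-chaperones differed among themselves. Dnajb9, which recruits BiP to IRE1 and is a known target of XBP1, had 68.3 and 121 CPM in MycCaP-BMP4 TAMs and 65.7 and 75.4 CPM in MycCaP TAMs. Only replicate 2 stood above the MycCaP libraries, and without it the log2 fold change turned to -0.019. Dnajb11 had 145 and 164 CPM in MycCaP-BMP4 TAMs against 179 and 152 CPM in MycCaP TAMs, with overlapping groups.

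**Figure D2:**
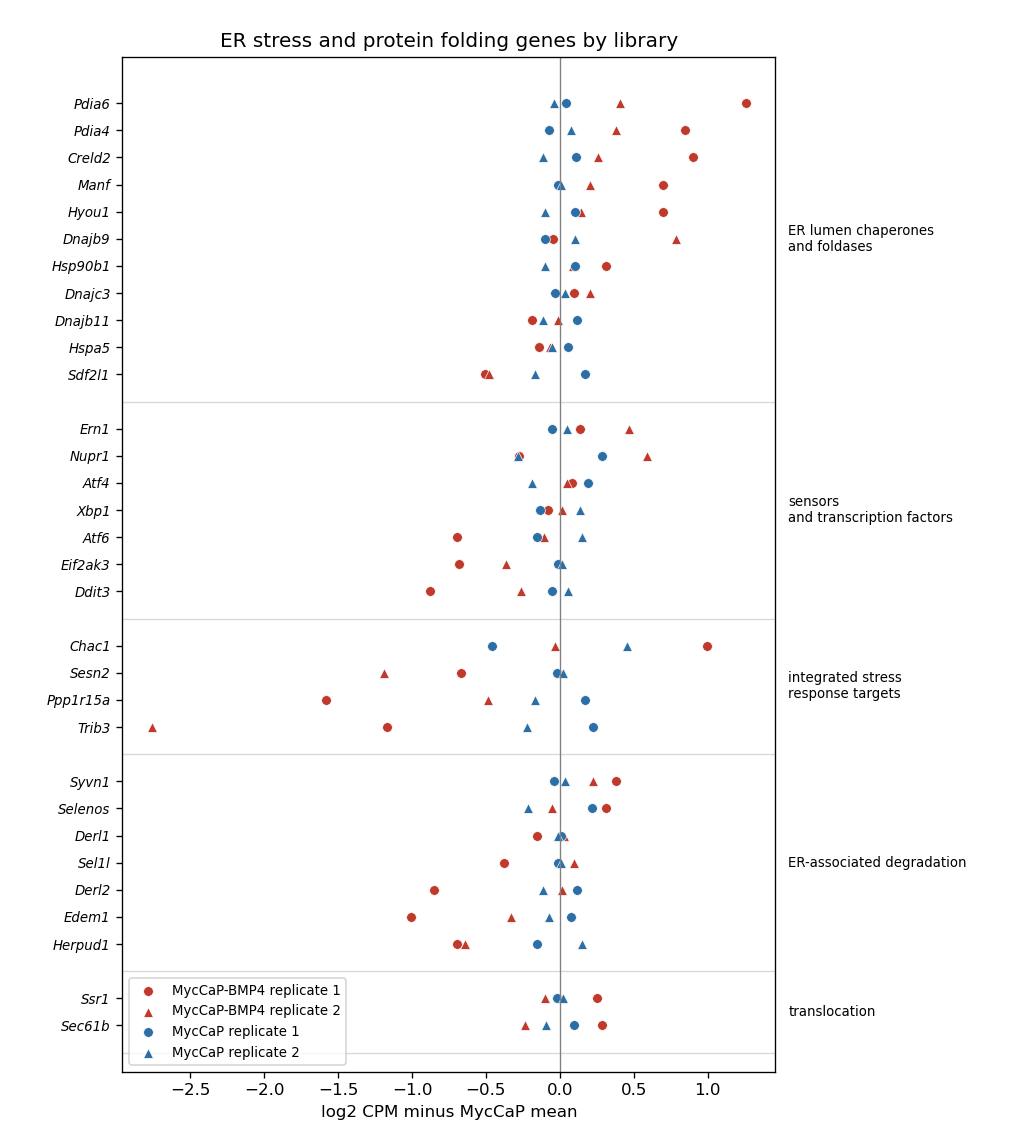
Log2 CPM of each of the 31 tested members minus the mean of the MycCaP libraries, with MycCaP-BMP4 libraries in red and MycCaP libraries in blue (circles, replicate 1; triangles, replicate 2), ordered by fold change within each role. Pdia6, Pdia4 and Creld2 lay to the right in both MycCaP-BMP4 libraries, and Trib3, Sesn2, Ppp1r15a, Herpud1 and Edem1 to the left.

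Sensors and transcription factors were on balance level, with a median fold change of -0.04 (log2). Of the 7, 1 was higher without overlap and 2 lower, beside 28.9% and 29.7% of all genes. Ern1 was the higher one, with 67.6 and 85.2 CPM in MycCaP-BMP4 TAMs and 59.4 and 63.7 CPM in MycCaP TAMs. Eif2ak3 (PERK) was lower in both, with 18.8 and 23.3 CPM in MycCaP-BMP4 TAMs against 29.9 and 30.4 CPM in MycCaP TAMs, a log2 fold change of -0.52 ± 0.27. Atf6 had 71.5 and 107 CPM in MycCaP-BMP4 TAMs against 104 and 129 CPM in MycCaP TAMs, where replicate 1 was below both MycCaP libraries and replicate 2 lay between them.

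Among the factors downstream of the sensors, Xbp1 had 135 and 143 CPM in MycCaP-BMP4 TAMs and 129 and 156 CPM in MycCaP TAMs. Atf4 had 386 and 378 CPM in MycCaP-BMP4 TAMs against 418 and 320 CPM in MycCaP TAMs. In both genes the MycCaP-BMP4 values lay within the range of the MycCaP values, and the 95% intervals of their log2 fold changes ran from -0.70 to 0.63 and from -0.76 to 0.86. Ddit3, which encodes CHOP, a factor made in prolonged ER stress that promotes cell death, had 14.4 and 22.1 CPM in MycCaP-BMP4 TAMs and 25.5 and 27.5 CPM in MycCaP TAMs. Its groups did not overlap, and its log2 fold change was -0.54 ± 0.32. Genes on the opposite strand, Gm4189 and Mars, overlap its exons. The largest overlap with a single gene covers 3.97% of the exon bases, and whether the counting used strand is not given. Nupr1, a small chromatin-associated stress protein, had 31.6 and 57.8 CPM in MycCaP-BMP4 TAMs against 46.7 and 31.4 CPM in MycCaP TAMs, with overlap.

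The 4 targets of the integrated stress response had the lowest median of the roles, -0.93 on the log2 scale. Of the 4, 3 were lower without overlap, beside 29.7% of all genes. Ppp1r15a encodes GADD34, the phosphatase subunit that reverses eIF2 phosphorylation. It had 139 and 296 CPM in MycCaP-BMP4 TAMs and 466 and 370 CPM in MycCaP TAMs, a log2 fold change of -0.94 ± 0.45 (95% interval -2.06 to 0.18, edgeR adjusted p = 0.322). Replicate 1 was the lower of the pair. Ppp1r15a is also among the genes known to respond quickly when tissue is dissociated. The 17 other early-response genes followed for that reason lay at a median of -1.20 (log2, against the MycCaP libraries) in replicate 1 and -0.23 in replicate 2, the same order as Ppp1r15a at -1.58 and -0.49, and their part in its level was not tested.

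Sesn2, a stress-induced protein that restrains mTORC1, had 18.4 and 12.8 CPM in MycCaP-BMP4 TAMs and 28.9 and 29.8 CPM in MycCaP TAMs. Its log2 fold change was -0.91 ± 0.30, with a 95% interval from -1.65 to -0.17 and an edgeR adjusted p of 0.208. Trib3, a pseudokinase gene induced by ATF4 and CHOP, had 2.28 and 0.703 CPM (63 and 16 counts) in MycCaP-BMP4 TAMs against 6.12 and 4.48 CPM (140 and 106 counts) in MycCaP TAMs. Trib3's log2 fold change was the lowest of all members, at -1.82 ± 0.70, with an edgeR adjusted p of 0.248. In both genes replicate 2 was below replicate 1, opposite to Ppp1r15a and to the macrophage markers, whose part in these levels was not tested. Chac1, which degrades glutathione and is induced by ATF4, was low in all libraries. It had 2.06 and 0.966 CPM in MycCaP-BMP4 TAMs against 0.700 and 1.39 CPM in MycCaP TAMs, which overlapped.

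Genes of ER-associated degradation, which returns misfolded proteins to the cytosol for the proteasome, were mixed, with a median log2 fold change of -0.12 over the 7 tested. Herpud1, a ubiquitin-like scaffold of the degradation complex, was lower in both, with 82.1 and 85.0 CPM in MycCaP-BMP4 TAMs and 119 and 148 CPM in MycCaP TAMs. Its log2 fold change was -0.68 ± 0.26, with a 95% interval from -1.33 to -0.03 and an edgeR adjusted p of 0.250. The 2 MycCaP-BMP4 values lay close together and those of the macrophage markers far apart, and the markers' part in this gene's level was not tested. Edem1, a lectin that hands over glycoproteins for degradation, had 117 and 186 CPM in MycCaP-BMP4 TAMs against 247 and 223 CPM in MycCaP TAMs, a log2 fold change of -0.63 ± 0.34.

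The core of the complex differed less. Syvn1, the ubiquitin ligase HRD1, had 62.9 and 56.3 CPM in MycCaP-BMP4 TAMs and 47.0 and 49.5 CPM in MycCaP TAMs. Syvn1 was the 1 of 7 tested degradation genes that was higher without overlap, beside 28.9% of all genes. Sel1l, the partner of Syvn1, had 114 and 159 CPM in MycCaP-BMP4 TAMs against 148 and 150 CPM in MycCaP TAMs. Derl1, a membrane channel subunit, had 119 and 135 CPM in MycCaP-BMP4 TAMs against 133 and 132 CPM in MycCaP TAMs. The values of Sel1l and Derl1 lay on both sides of the MycCaP values. Derl2 had 30.9 and 56.5 CPM in MycCaP-BMP4 TAMs against 60.5 and 51.7 CPM in MycCaP TAMs, where only replicate 1 was low. Selenos, a selenoprotein of the same complex, had 124 and 96.3 CPM in MycCaP-BMP4 TAMs against 116 and 86.0 CPM in MycCaP TAMs. Derl3, which is known from secretory cells, had 1 and 6 counts in MycCaP-BMP4 TAMs and 4 and 5 counts in MycCaP TAMs and was too low to test.

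The translocation genes differed little. Sec61b, a subunit of the channel through which new chains enter the ER, had 111 and 77.3 CPM in MycCaP-BMP4 TAMs and 97.4 and 85.4 CPM in MycCaP TAMs. Ssr1, of the translocon-associated complex, had 372 and 291 CPM in MycCaP-BMP4 TAMs against 308 and 317 CPM in MycCaP TAMs. In both genes replicate 1 was above and replicate 2 below the MycCaP libraries.

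**Figure D3:**
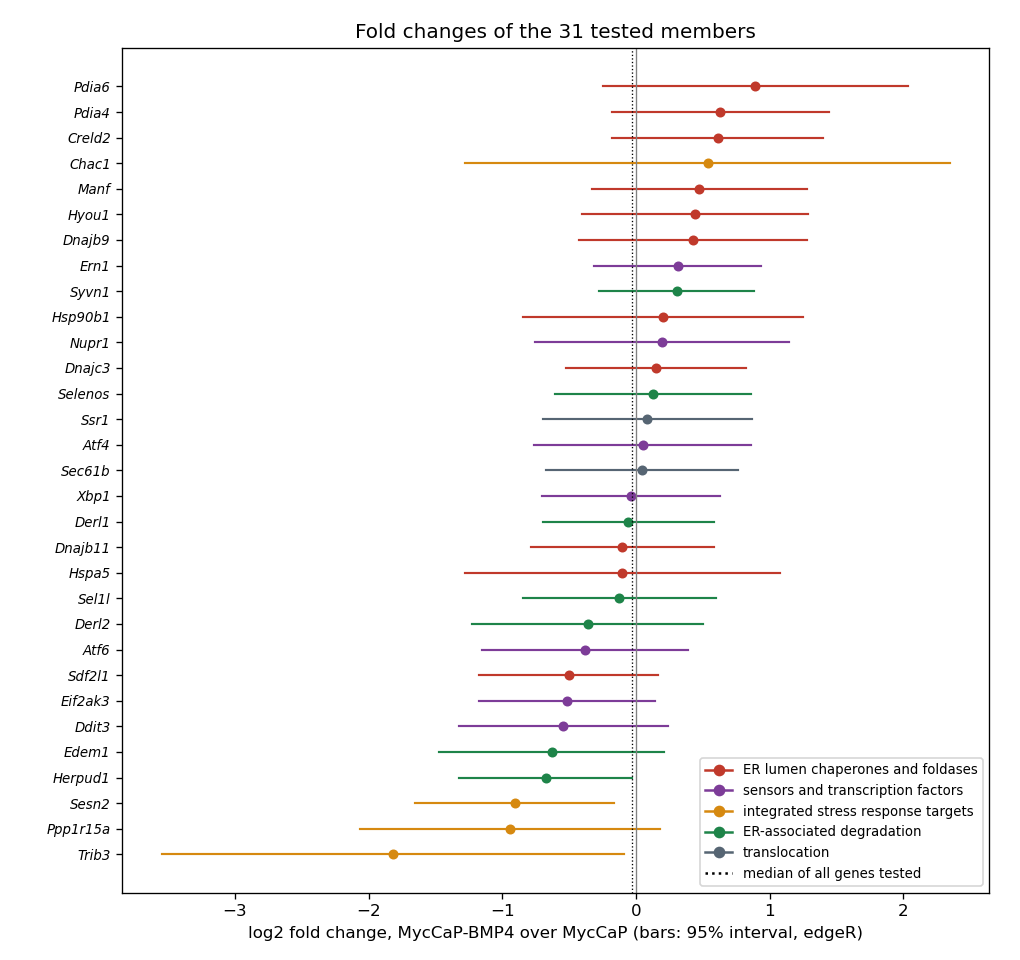
Log2 fold change of the 31 tested members, MycCaP-BMP4 over MycCaP, with 95% intervals from edgeR's fit, coloured by role. The intervals of Trib3, Sesn2 and Herpud1 lie below 0 and none lies above it, and none of the 31 passed after adjustment over all 14075 genes.

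The 2 MycCaP-BMP4 libraries lay nearer to each other in the medians of the members, and of all genes tested, than in those of the macrophage markers. Replicate 1 was above replicate 2 for 14 of 31 members, against 50.9% of all genes. Set against the mean of the MycCaP libraries on the log2 scale, the members' median was -0.078 in replicate 1 and 0.013 in replicate 2. For all genes tested the medians were -0.040 and -0.0043, so this closeness was not particular to the members. TMM scaling sets libraries level over most genes, so the closeness over all genes follows from the scaling and is not a result. By role, the members' medians were 0.31 and 0.20 for the chaperones and -0.28 and 0.015 for the sensors and factors. They were -0.92 and -0.84 for the integrated stress response targets, and -0.38 and 0.013 for the degradation genes. The 4 targets themselves differed between the libraries. They lay at -1.58 and -0.49 (Ppp1r15a), -1.17 and -2.76 (Trib3), -0.67 and -1.19 (Sesn2), and 1.00 and -0.035 (Chac1). Macrophage markers, at -2.34 and -0.43, were below all of these role medians in replicate 1. In replicate 2 the median of the integrated stress response targets was lower still. The macrophage markers' part in the members' levels was not tested. With the macrophage markers as the basis of scaling, the median of all genes moved to 1.62 and that of the members to 1.60, with 24 members higher without overlap and none lower, against 67.6% and 4.18% of all genes. Under that scaling Trib3 and Ppp1r15a had the lowest log2 fold changes of the members, at 0.21 and 0.39. EdgeR then called 1 of the 31 members higher (Pdia6) and none lower, against 6.61% and 0.156% of all genes.

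The members that edgeR calls depend on which library is left out, as do its calls over all genes. Without MycCaP-BMP4 replicate 2, 5 members were called higher (Creld2, Hyou1, Manf, Pdia4 and Pdia6) and 6 lower (Atf6, Ddit3, Derl2, Edem1, Herpud1 and Ppp1r15a), and 5753 genes were called in all. Without MycCaP-BMP4 replicate 1, no member was called higher and 2 were called lower (Sesn2 and Trib3), of 1043 genes in all. Over all genes tested in these fits, 18.5% were called higher and 20.2% lower without replicate 2, and 4.48% higher and 2.63% lower without replicate 1, so the members' counts are not read as particular to them. With 1 MycCaP-BMP4 library, the fit takes its spread from the MycCaP pair and assumes that the lone library varies like it.

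**Figure D4:**
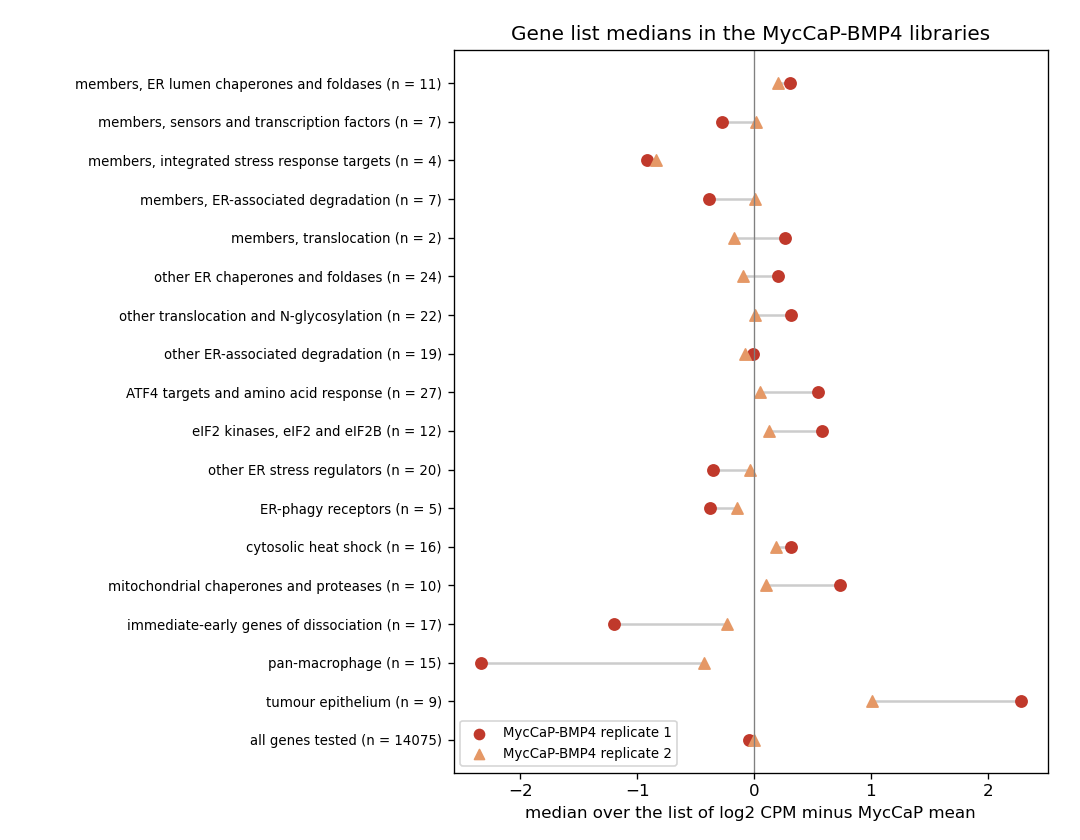
Median over each gene list of the log2 CPM minus the MycCaP mean, in MycCaP-BMP4 replicate 1 (circle) and replicate 2 (triangle), with the number of genes tested. Among the members, the median of the 4 integrated stress response targets lay near -0.9 in both libraries, though no single target did. Ppp1r15a lay at -1.58 and -0.49, and Trib3 at -1.17 and -2.76. The median of the 11 chaperones among the members lay above 0 in both libraries, and that of 24 other ER chaperones at 0.21 and -0.095. Macrophage markers lay far apart at -2.34 and -0.43.

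Related genes outside the 32 were also followed. No gene of these lists passed edgeR's test. Counts without overlap in these lists, and in the cell marker lists further on, stand beside 28.9% of all genes higher and 29.7% lower. Of 24 other ER chaperones and foldases, 7 were higher without overlap and 5 lower, and the median was 0.06 (log2). Fkbp14, a prolyl isomerase that acts on collagen, had 29.4 and 15.2 CPM in MycCaP-BMP4 TAMs and 7.57 and 12.2 CPM in MycCaP TAMs. Mesd, a chaperone of lipoprotein receptors, had 250 and 134 CPM in MycCaP-BMP4 TAMs against 107 and 107 CPM in MycCaP TAMs. Ero1b, an oxidase that recharges disulfide isomerases, lay lower, with 20.5 and 32.6 CPM in MycCaP-BMP4 TAMs against 51.0 and 46.5 CPM in MycCaP TAMs.

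Of 22 other genes of translocation and N-glycosylation, 8 were higher and 2 lower, with a median of 0.15. Srpr, Ssr2 and Stt3a, of the signal recognition particle receptor, the translocon and the oligosaccharyltransferase, had log2 fold changes of 0.56 ± 0.32, 0.55 ± 0.35 and 0.47 ± 0.32. Of 19 other degradation genes 4 were higher and 4 lower, with a median of 0.0010. Fam8a1, a cofactor of HRD1, had 51.0 and 29.6 CPM in MycCaP-BMP4 TAMs against 23.1 and 29.1 CPM in MycCaP TAMs. Herpud2 had 82.3 and 70.2 CPM in MycCaP-BMP4 TAMs against 56.3 and 59.6 CPM in MycCaP TAMs, and so lay opposite to Herpud1. Of 5 ER-phagy receptors tested, none was higher and 1, Retreg1, was lower without overlap, at 92.7 and 79.1 CPM in MycCaP-BMP4 TAMs against 117 and 123 CPM in MycCaP TAMs.

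Targets of ATF4 outside the members lay on both sides. Of 27 tested, 10 were higher without overlap and 9 lower, against 28.9% and 29.7% of all genes. The median was 0.30, and edgeR called none. DESeq2 called 4 higher (Asns, Slc7a5, Cth and Phgdh) and 3 lower (Ddit4, Stc2 and Gdf15), against 6.83% and 3.01% of all genes. Asns, asparagine synthetase, had 107 and 39.5 CPM in MycCaP-BMP4 TAMs and 13.6 and 15.5 CPM in MycCaP TAMs, a log2 fold change of 2.33 ± 0.50 with an edgeR adjusted p of 0.143. Phgdh, the first enzyme of serine synthesis, had 159 and 63.3 CPM in MycCaP-BMP4 TAMs against 38.9 and 42.8 CPM in MycCaP TAMs. Both were higher in each MycCaP-BMP4 library, and more so in replicate 1.

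Ddit4, which restrains mTORC1 like Sesn2, had 34.1 and 33.5 CPM in MycCaP-BMP4 TAMs and 91.0 and 89.8 CPM in MycCaP TAMs. Its log2 fold change was -1.42 ± 0.23, with an edgeR adjusted p of 0.116, and the replicates of each group were nearly equal. Stc2, a secreted glycoprotein, had 0.0724 and 0.351 CPM in MycCaP-BMP4 TAMs against 3.72 and 1.82 CPM in MycCaP TAMs. The stress cytokine gene Gdf15 had 30.2 and 80.4 CPM in MycCaP-BMP4 TAMs against 167 and 146 CPM in MycCaP TAMs.

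Of 12 genes of the eIF2 kinases, eIF2 and its exchange factor, 6 were higher without overlap and 2 lower, with a median of 0.29. Eif2ak4 (GCN2, the kinase that senses uncharged tRNA) had 45.4 and 27.2 CPM in MycCaP-BMP4 TAMs and 16.2 and 19.6 CPM in MycCaP TAMs. Eif2ak2 (PKR, which is induced by interferon) had 33.0 and 43.5 CPM in MycCaP-BMP4 TAMs against 61.6 and 63.6 CPM in MycCaP TAMs. Ppp1ca, a phosphatase catalytic subunit gene of the same list, was listed at 0 in every library. With Eif2ak3 among the members, PERK and PKR genes were thus lower and GCN2 higher, none past the threshold. Among 20 other ER stress regulators, 3 were higher without overlap and 9 lower, with a median of -0.19. Wfs1, an ER membrane protein induced by ER stress, had 23.4 and 23.9 CPM in MycCaP-BMP4 TAMs against 7.87 and 8.15 CPM in MycCaP TAMs, a log2 fold change of 1.56 ± 0.29 with an edgeR adjusted p of 0.129. Casp12, an ER-associated caspase in rodents, had 2.64 and 2.50 CPM in MycCaP-BMP4 TAMs against 6.78 and 10.2 CPM in MycCaP TAMs, and Bak1, a cell death effector, had 36.4 and 63.2 CPM in MycCaP-BMP4 TAMs against 117 and 94.8 CPM in MycCaP TAMs.

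Chaperones outside the ER were set beside these. Of 16 cytosolic heat shock genes 7 were higher without overlap and 2 lower, with a median of 0.22. Of 10 mitochondrial chaperones and proteases 7 were higher and 1 lower, with a median of 0.48. Over all genes tested, 28.9% were higher and 29.7% lower without overlap. Hspb1, a small heat shock protein, had 1007 and 412 CPM in MycCaP-BMP4 TAMs against 130 and 128 CPM in MycCaP TAMs, a log2 fold change of 2.46 ± 0.52 with an edgeR adjusted p of 0.141. Hsf1, the heat shock transcription factor gene, had 60.8 and 39.3 CPM in MycCaP-BMP4 TAMs against 20.5 and 27.5 CPM in MycCaP TAMs. Hspd1, the mitochondrial chaperonin, had 826 and 518 CPM in MycCaP-BMP4 TAMs against 391 and 370 CPM in MycCaP TAMs. In these 3 genes replicate 1 was above replicate 2, as it was for Pdia6, Pdia4, Creld2, Hyou1 and Manf.

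Cells other than macrophages that fold much secreted protein were checked by their markers, since ER genes are used by all cells. In their summed level tumour epithelial genes were, like those 5 chaperones, highest in MycCaP-BMP4 replicate 1, with replicate 2 next. The summed level of 15 genes was 1251 and 500 CPM in MycCaP-BMP4 TAMs and 244 and 275 CPM in MycCaP TAMs. Of 9 tested, 7 were higher without overlap and 1 lower, against 28.9% and 29.7% of all genes. Spint2 and Cldn3 had 454 and 183 CPM and 359 and 126 CPM in MycCaP-BMP4 TAMs, against 130 and 128 CPM and 25.8 and 27.6 CPM in MycCaP TAMs. Krt5 was at 0 in all libraries and Epcam, Krt18, Krt14 and Cldn7 were under 1 CPM. Whether epithelial RNA had a part in the levels of Pdia6, Pdia4, Creld2, Hyou1 and Manf was not tested.

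Plasma cells, the classical secretory cells of the immune system, were followed through 11 genes. Without overlap, 6 of the 10 tested lay below the MycCaP libraries and 2 above, and the middle fold change was -1.04 (log2). Their near-equal sums do not show this. The 11 B and plasma cell genes summed to 169 and 177 CPM in MycCaP-BMP4 TAMs and 167 and 213 CPM in MycCaP TAMs. Within them Sdc1, which epithelium also expresses, had 106 and 72.5 CPM in MycCaP-BMP4 TAMs against 26.7 and 30.99 CPM in MycCaP TAMs, and Ighm had 33.2 and 68.1 CPM in MycCaP-BMP4 TAMs against 99.0 and 131 CPM in MycCaP TAMs. Fibroblast and mural genes summed to 494 and 399 CPM in MycCaP-BMP4 TAMs and 263 and 632 CPM in MycCaP TAMs, with 2 of 12 higher without overlap and 3 lower. Chondrocyte genes summed to 131 and 74.5 CPM in MycCaP-BMP4 TAMs against 13.6 and 21.7 CPM in MycCaP TAMs, mostly from Sox9 at 128 and 65.5 CPM in MycCaP-BMP4 TAMs against 11.2 and 19.3 CPM in MycCaP TAMs, while Acan and Col2a1 were under 4 CPM. Osteoblast genes summed to 801 and 595 CPM in MycCaP-BMP4 TAMs against 620 and 653 CPM in MycCaP TAMs, nearly all from Spp1, which macrophages also express and whose groups overlapped. Of 4 osteoblast genes tested, none was lower and 2 were higher without overlap. Both were called by DESeq2, as 6.83% of all genes were, and not by edgeR. These were Ibsp, with 1.77 and 1.93 CPM in MycCaP-BMP4 TAMs and 0 counts in both MycCaP libraries, and Alpl, with 2.39 and 2.86 CPM in MycCaP-BMP4 TAMs and 0.0437 and 0.380 CPM in MycCaP TAMs. Sp7 and Bglap were under 1 CPM. Mast cells, which store secreted proteases, had summed marker levels of 27.7 and 46.3 CPM in MycCaP-BMP4 TAMs and 9.58 and 21.2 CPM in MycCaP TAMs, with 5 of 6 genes tested higher without overlap and 1 lower. Dendritic cell genes summed to 15.4 and 40.8 CPM in MycCaP-BMP4 TAMs and 63.1 and 75.5 CPM in MycCaP TAMs. Neutrophil genes summed to 53.6 and 67.7 CPM in MycCaP-BMP4 TAMs and 74.5 and 71.99 CPM in MycCaP TAMs, and endothelial genes to 52.6 and 35.9 CPM in MycCaP-BMP4 TAMs and 62.5 and 101 CPM in MycCaP TAMs. The part of these cells in the members' levels was not tested. T and NK cell genes summed to 17.96 and 49.9 CPM in MycCaP-BMP4 TAMs and 94.1 and 88.5 CPM in MycCaP TAMs. The genes of the proteins sorted for were present in all libraries. Adgre1 (F4/80) had 146 and 638 CPM in MycCaP-BMP4 TAMs against 864 and 920 CPM in MycCaP TAMs. Itgam, which encodes CD11b, had 127 and 620 CPM in MycCaP-BMP4 TAMs against 714 and 876 CPM in MycCaP TAMs. Ptprc, the gene of CD45, had 126 and 376 CPM in MycCaP-BMP4 TAMs, against 650 and 689 CPM in MycCaP TAMs. With Ly6g, Ly6c1 and Ly6c2 this list held 6 genes, of which 1 was at 0 in all libraries. Of 5 tested, 1 was higher without overlap and 4 lower, against 28.9% and 29.7% of all genes. The higher one, a Ly6 gene, had a log2 fold change of 2.86. DESeq2 called it, as it did 6.83% of all genes, and edgeR did not.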

How the data were processed

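Per the labels' protocols, RNA was poly(A)-selected, the kit keeps strand, and reads are paired. The authors deposited raw counts for each Ensembl gene. Their submitters' processing notes list STAR 2.6.0b, HTSeq, RSEM, Bowtie2 2.2.3, GRCm38 and mm10, without saying what each did. For the counting, neither annotation release nor strand setting is given in the sources used here. Summary lines that stand for no gene entered neither the library sizes nor the fits. Reads outside genes made up 6.01% and 6.03% of counted reads in MycCaP-BMP4 libraries and 3.98% and 3.37% in MycCaP libraries, multiply aligned reads 10.6% and 9.35% against 8.01% and 8.49%, and ambiguous reads 2.84% and 2.70% against 2.90% and 2.73%.

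Symbols came from a reference table (37607 of 39179 identifiers), and exon lengths and overlaps from GENCODE M21 on GRCm38. Groups follow the implanted line named in each label. The counts were filtered with filterByExpr, scaled with TMM factors, which also scale the CPM printed here (1.14 and 0.988 for MycCaP-BMP4, 0.916 and 0.972 for MycCaP) and tested with edgeR 4.0.16's quasi-likelihood F test, two-sided, over all 14075 genes, with Benjamini-Hochberg adjustment and a threshold of 0.05. Log2 values per library use a prior count of 2. DESeq2 1.42.0 and limma-voom (limma 3.58.1) were alternatives. Alternatives also changed the scaling, the filter and the design, and left out each library in turn; a crossed pairing was chosen after seeing the data. Same-numbered libraries did not deviate together (correlation -0.127 across genes, which are not independent), and the labels do not say that a number marks a mouse or a day.

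The members and gene lists were chosen with earlier results of these data known. The genes named are all members, up to 3 genes of each related list with the smallest p, up to 2 abundant markers per cell type, and any gene a small count refers to. Motif searches used exact letters. Genes with near-identical copies or overlaps are uncertain where reads could be split. Among the members, Hsp90b1 has the largest exonic overlap with a single other annotated gene, at 10.3% of its exon bases. Some genes of these lists are not reported here.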

Additional observations from a re-analysis of the deposited data

How the results depend on the processing

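No member changed sides of the threshold under DESeq2's size factors, DESeq2's test, limma-voom, library size alone, no filter, a filter of 1 CPM in 2 libraries, or the replicate block. Over the whole table edgeR called 65 genes with library size alone, 1109 with no filter on low counts, 952 with scaling on the macrophage markers and 2 with the replicate block, and DESeq2 called 1385, against 0 as reported. Pairing the libraries crosswise, a choice made after seeing the data, gave 689 calls and no member. With 1 library left out, calls ranged from 0 to 5753 genes and from 0 to 11 members, members higher without overlap from 11 to 13, members lower from 11 to 14, and the median log2 fold change of the members from -0.075 to 0.055. Over all genes in the fits with 1 library left out, 37.1% to 43.4% were higher without overlap and 37.5% to 43.8% lower. The members' counts were near this background. With no filter Derl3 entered too, and the median of 32 members was -0.00055, between Sec61b at 0.041 and Xbp1 at -0.042. Why values moved when a library was left out was not tested.

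Library size alone moved the median of all genes from -0.03 to 0.14 and that of the members to 0.23. It turned the log2 fold changes of Hspa5, Dnajb11, Xbp1, Sel1l and Derl1 to 0.068, 0.066, 0.13, 0.030 and 0.11. Scaling on the macrophage markers moved the median of all genes to 1.62 and that of the members to 1.60. It put 24 members higher without overlap and 0 lower, against 67.6% and 4.18% of all genes. It also called 1 member higher, against 6.61% of all genes. It turned the log2 fold changes of Hspa5 (1.55), Dnajb11 (1.52), Sdf2l1 (1.16), Atf6 (1.11), Eif2ak3 (1.06), Xbp1 (1.60), Ddit3 (0.94), Ppp1r15a (0.39), Trib3 (0.21), Sesn2 (0.90), Herpud1 (0.98), Edem1 (0.83), Sel1l (1.40), Derl1 (1.56) and Derl2 (1.04).

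With 1 library left out, fold changes that changed sign ranged from -0.019 to 0.78 for Dnajb9, -0.22 to 0.010 for Dnajb11, -0.18 to 0.10 for Xbp1, -0.13 to 0.25 for Atf4, -0.28 to 0.56 for Nupr1, -0.12 to 1.10 for Chac1, -0.35 to 0.093 for Sel1l, -0.13 to 0.028 for Derl1, -0.83 to 0.0060 for Derl2, -0.082 to 0.35 for Selenos, -0.24 to 0.31 for Sec61b and -0.10 to 0.28 for Ssr1. In all, 353 of the members' alternative values kept their sign and side of the threshold, 14 newly passed and 36 changed sign. Derl3 had at most 6 counts in any library, and Trib3 and Chac1 had as few as 16.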
